A study of Mus musculus with 12 samples.

Results

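The 46 genes described here are interferon-stimulated genes, the set of antiviral and immune genes that cells switch on when they sense type I interferon. They were chosen by name, and all 46 were found among the 34327 genes of the expression table. A gene entered the tests when its mean over the libraries of a fit was at least 1 TPM, a gene's share of the library's transcripts corrected for transcript length. Over all 12 libraries 45 of the 46 reached that level, with Oasl1, a member of the oligoadenylate synthetase family, below it. Over the 8 collagen gel libraries all 46 reached it.

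RNA was sequenced from bone marrow-derived macrophages (BMDMs) of C57BL/6J mice, grown from marrow in medium conditioned by L929 cells, a line that supplies the macrophage growth factor CSF1. The lifted cells were cultured in 6 ways, with 2 libraries each: on tissue culture (TC) plates, in low-collagen gels at 2 mg/ml or in high-collagen gels at 7 mg/ml of rat tail type I collagen, each left untreated or given IL-4 at 20 ng/ml. The sample titles give 24 h for every library, while the protocol for gels gives a range of times around it. No genetic change was introduced, the mice's age was not given, and the labels do not say whether the 2 replicates came from separate animals or cultures, so the p-values below measure a spread that may be technical. IL-4 is the cytokine that drives macrophages toward a tissue-repair program, and the comparisons ask how these antiviral genes stood under that cytokine and in gels of different collagen density.

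Type I interferons bind the receptor chains IFNAR1 and IFNAR2 and activate the kinases JAK1 and TYK2. These phosphorylate STAT2, which joins IRF9 in a complex that binds a promoter element called the interferon-stimulated response element (ISRE). Macrophages keep many interferon-stimulated genes at a basal level without infection. Their products sense foreign RNA and DNA, degrade or withhold viral RNA, attach the ubiquitin-like protein ISG15 to targets, attack vacuoles as GTPases, or restrict virus entry and release. The response is limited from within, with USP18 and SOCS1 acting on the receptor complex. IL-4 signals through other receptor chains and STAT6.

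Promoter sequences from RefSeq (GRCm38.p6) were matched for 34 of the 46 genes. The ISRE core, GAAA, any 2 bases and GAAA, was searched on both strands in the 250 bases before the transcription start. It was found for 14 of those 34 genes (41.2%), and for 3.46% of all 27025 mouse genes with a promoter sequence. The windows below are shown because they hold the core in genes on which the results turn, Ifit1, Ifit3, Ifit3b, Isg15, Rsad2, Oas3 and Gbp2. They read 5′ to 3′ on the gene's own strand, and the capitals mark each match, which reads TTTC, 2 bases and TTTC where it lies on the opposite strand. In Isg15, 3 matches overlap in 1 run.
Ifit1, chr19:34640760-34640838, plus strand: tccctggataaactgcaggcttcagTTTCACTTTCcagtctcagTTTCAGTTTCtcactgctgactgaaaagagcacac
Ifit3, chr19:34583348-34583441, plus strand: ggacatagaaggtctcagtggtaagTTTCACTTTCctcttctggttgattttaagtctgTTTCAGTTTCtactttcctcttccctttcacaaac
Ifit3b, chr19:34607744-34607837, plus strand: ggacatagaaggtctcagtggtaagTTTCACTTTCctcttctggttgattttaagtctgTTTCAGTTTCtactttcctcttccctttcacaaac
Isg15, chr4:156200850-156200921, minus strand: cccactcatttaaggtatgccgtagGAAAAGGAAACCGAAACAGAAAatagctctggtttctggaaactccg
Rsad2, chr12:26456538-26456597, minus strand: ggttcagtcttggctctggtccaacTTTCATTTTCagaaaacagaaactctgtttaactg
Oas3, chr5:120777700-120777759, minus strand: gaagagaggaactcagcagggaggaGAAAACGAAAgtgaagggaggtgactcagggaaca
Gbp2, chr3:142620579-142620638, plus strand: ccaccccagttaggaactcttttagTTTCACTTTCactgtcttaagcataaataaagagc

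The promoter of Ifit2, the other IFIT gene in the set, held no match to this core. The Ifit1 window held 2 matches beginning 104 and 85 bases before the start. Ifit3 and Ifit3b, neighbouring copies on chromosome 19, shared the same 94 bases with 0 differences. A shorter element, TTC and GAA with 3 bases between, is the core of sites bound by STAT dimers. Searched in the same way, it was found for 7 of the 34 genes (20.6%) and for 8.13% of all genes. With 4 bases between, the spacing that STAT6 prefers, it was found for 5 of the 34 (14.7%) and for 6.76% of all. A match is a run of letters in this window and does not show that a factor was bound.

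All 12 libraries held between 11543 and 11910 genes at 1 TPM or more, and 0 pairs of libraries were identical. The table holds TPM without read counts, so the depth is unknown and no counting error can be given. The cells carried macrophage transcripts at high levels in every library, with Csf1r between 529 and 1929 TPM and Lyz2 between 13223 and 48901 TPM. Itgam had 2 entries, of which 1 stood at 1.29 to 10.9 TPM, and values of the other are not given here. All 7 genes of an IL-4 response list rose with IL-4 on plates and in both gels. Lists of markers of other cells summed to at most 13.5 TPM in any library, with Ncr1, Ly6g and Epx listed at 0 in all 12.

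Read as single genes, the members ranged widely. By mean over the 12 libraries, 5 stood at 100 TPM or more, 33 between 10 and 100 TPM, 7 between 1 and 10 TPM and 1 under 1 TPM. Ly6e, a membrane protein of the LY6 family, Ifitm3, which blocks virus entry at endosomes, Bst2, which tethers budding virions, Lgals3bp, a secreted glycoprotein, and Ifi27l2a made up 63.8% to 74.7% of the summed TPM of the 46 in each library. That sum ran from 1489 TPM in a TC plate library with IL-4 to 4688 TPM in an untreated low-collagen library. Because the few abundant genes set the sum, the level of the group is given below as the mean of log2(TPM + 1) over the 45 genes, in which each gene weighs the same.

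The group's level was lowest on plates with IL-4, and its 2 replicates differed most in the low-collagen gels. On plates it was 4.85 and 5.01 untreated and 3.59 and 3.56 with IL-4. In high-collagen gels it was 4.88 and 5.14 untreated and 4.42 and 4.18 with IL-4. In low-collagen gels it was 4.91 and 5.61 untreated and 5.16 and 4.30 with IL-4. The IL-4 libraries lay below the untreated ones on plates and in high-collagen gels, whereas in low-collagen gels replicate 1 with IL-4 lay between the 2 untreated libraries.

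**Figure D1:**
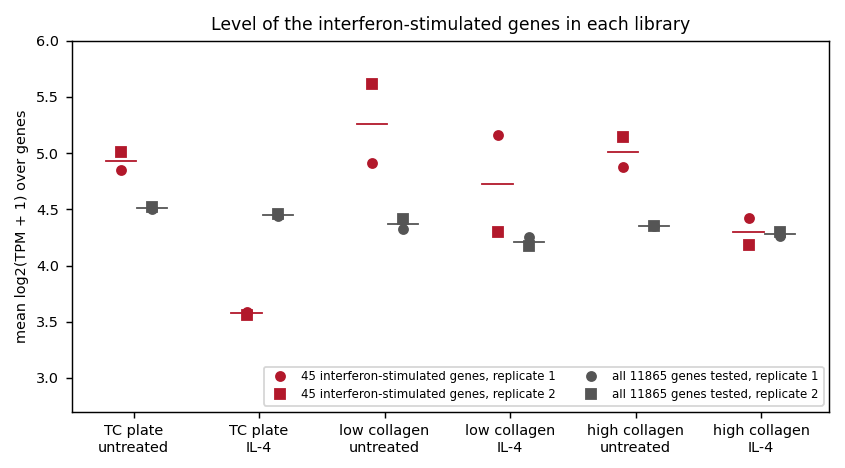
Mean log2(TPM + 1) of the 45 interferon-stimulated genes (red) and of all 11865 genes tested (grey) in each of the 12 libraries, with a line at each group's mean of 2 replicates. The grey points lie close together, whereas the red points of the low-collagen groups are 4.91 and 5.61 untreated and 5.16 and 4.30 with IL-4.

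The spread within the low-collagen groups ran in 1 direction for nearly every gene of the set. Untreated, 44 of 45 were higher in replicate 2, against 64.2% of all 11865 genes, with a median replicate difference of -0.63 (replicate 1 minus replicate 2, log2). With IL-4, 45 of 45 were higher in replicate 1, against 66.8% of all genes, with a median difference of 0.75. The members' shares were thus above those of all genes, in opposite replicates. Elsewhere the differences were smaller. On plates 39 of 45 were higher in replicate 2 untreated (53.0% of all genes) and 24 of 45 in replicate 1 with IL-4 (47.9%). In high-collagen gels 37 of 45 were higher in replicate 2 untreated (48.4%) and 35 of 45 in replicate 1 with IL-4 (42.6%).

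On the TPM scale the 2 replicates differed by a median ratio of 1.13 and 1.18 on plates without and with IL-4 and 1.18 and 1.19 in high-collagen gels, but by 1.56 and 1.79 in low-collagen gels. There, 13 genes untreated and 15 with IL-4 were at least 2-fold apart. Ifit2, an RNA-binding protein that limits translation of viral messages, was at 13.5 and 49.2 TPM in untreated low-collagen replicates 1 and 2 and at 24.2 and 8.23 TPM with IL-4. Mx2, of a dynamin-like GTPase family but annotated as a polymorphic pseudogene, was at 3.84 and 11.3 TPM untreated and at 4.66 and 1.91 TPM with IL-4. Irf7, the transcription factor that amplifies interferon production, was at 23.2 and 50.5 TPM untreated and at 53.2 and 23.1 TPM with IL-4, so that its 2 IL-4 values spanned its untreated ones.

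Over the 12 libraries, 24 of the 46 genes had their highest value in low-collagen untreated replicate 2 and 9 had it in low-collagen IL-4 replicate 1, while 38 had their lowest in a plate library with IL-4. The same direction between replicates held for interferon-stimulated genes outside the set. Of 43 others, 41 were higher in replicate 2 untreated and 43 in replicate 1 with IL-4 in low-collagen gels. Interferon transcripts themselves were at or near 0, since 17 of 21 ligand genes were listed at 0 in all 12 libraries and the 21 summed to at most 0.796 TPM. In low-collagen gels that sum was 0.240 and 0.0436 TPM untreated and 0.0408 and 0.275 TPM with IL-4. Marker sums there, for dendritic cells, were 10.4 and 9.49 TPM untreated and 10.2 and 11.1 TPM with IL-4, and those for T, NK and B cells were 7.95 and 8.03 TPM and then 5.87 and 4.07 TPM. Across the 45 genes, which are not independent of each other, the replicate differences of the set correlated at r = 0.70 between the untreated high- and low-collagen gels, at 0.57 between the gels with IL-4 and at -0.55 between untreated and IL-4 low-collagen gels, given as a description. What set the replicates apart was not tested, and the 2 higher libraries, untreated replicate 2 and IL-4 replicate 1, are left out together in an alternative below that was added after the data were seen.

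**Figure D2:**
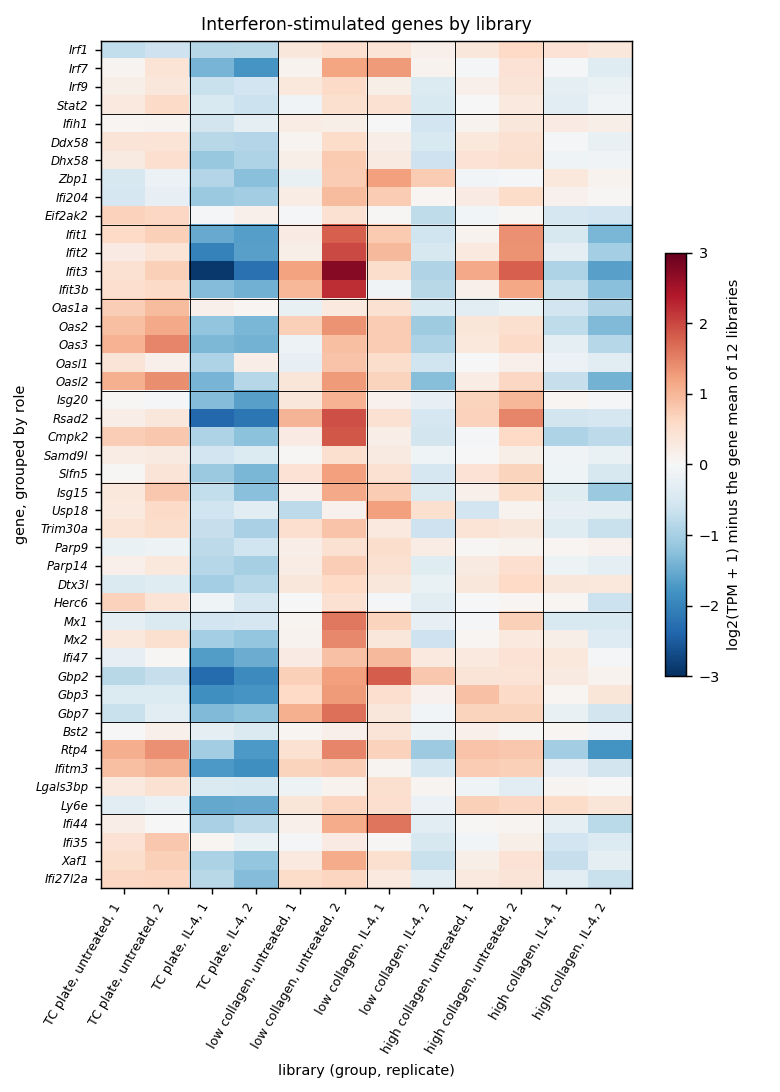
Deviation of each of the 46 genes from its own mean over the 12 libraries, in log2(TPM + 1), with genes in rows grouped by role and libraries in columns. Both columns of TC plates with IL-4 are blue for nearly all genes, and in the low-collagen columns untreated replicate 2 and IL-4 replicate 1 are redder than their partners.

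With IL-4 on TC plates, nearly the whole set fell. By limma at an adjusted p under 0.2 over 11865 genes, the threshold the study used, 42 of 45 genes were called lower and 0 higher, against 24.0% and 14.7% of all genes. The median log2 fold change of the 45 was -1.29, beside -0.06 over all genes, and in 45 of 45 both IL-4 libraries were below both untreated libraries, as in 38.3% of all genes. The 3 genes not called were Ifi44 (-0.98 ± 0.55, SE), Irf1 (-0.17 ± 0.11) and Mx1 (-0.16 ± 0.45).

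The factors that carry the interferon signal fell unevenly. Irf7 went from 22.7 and 29.1 TPM to 7.56 and 5.63 TPM (-1.82 ± 0.41 on the log2(TPM + 1) scale). Stat2 and Irf9, partners in the complex that binds the ISRE, fell by 0.98 and 0.88. Irf1, the most abundant of the 4 by mean over the 12 libraries and a factor that also answers to interferon gamma, was at 28.8 and 31.6 TPM untreated and 26.5 and 26.9 TPM with IL-4. All 6 nucleic acid sensors were called lower, led by the RIG-I family members Dhx58 (-1.41 ± 0.26) and Ddx58 (-1.26 ± 0.20). Ifi204, a DNA sensor and by the same measure the most abundant of them, went from 50.9 and 61.2 TPM to 33.0 and 34.7 TPM.

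Among the genes that act on RNA, Ifit3, of the IFIT family, went from 14.1 and 17.1 TPM to 0.489 and 1.34 TPM (-3.15 ± 0.56, adjusted p by limma = 0.0027). Its 3 relatives Ifit1, Ifit2 and Ifit3b also fell, and the 4 had a median of -2.20. Oas3, which makes oligoadenylates that switch on an RNA-cleaving enzyme, went from 25.8 and 34.9 TPM to 4.11 and 3.92 TPM (-2.63 ± 0.49, adjusted p by limma = 0.0037). Oasl2 and Oas2 fell by 2.36 and 2.31, and Oas1a, the family's most abundant by mean, fell by 0.73, from 66.1 and 77.2 TPM to 44.2 and 41.3 TPM. Rsad2, the enzyme viperin that makes a chain-ending nucleotide, fell by 2.54, and its genomic neighbour Cmpk2, a nucleotide kinase, by 1.85. Samd9l, the most abundant of that group, went from 30.97 and 32.5 TPM to 17.5 and 19.7 TPM.

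Membrane and secreted products included the most abundant transcripts. Ifitm3 went from 971 and 1050 TPM to 156 and 144 TPM (-2.74 ± 0.16, adjusted p by limma = 2.1e-06), the smallest SE relative to its change among the largest falls. Ly6e went from 468 and 513 TPM to 200.4 and 203 TPM (-1.28 ± 0.18). Ifi27l2a, a mitochondrial protein family member, went from 333 and 341 TPM to 122 and 87.5 TPM. Bst2 fell by only 0.44, from 494 and 546 TPM to 400.3 and 367 TPM. In the ISG15 system, Isg15 fell by 1.55 and Usp18, the protease that removes ISG15, by 0.89, with Trim30a, a ubiquitin ligase of that group, at 57.2 and 61.8 TPM untreated and 26.3 and 21.4 TPM with IL-4. Among the GTPases, Ifi47, which acts at vacuole membranes, went from 18.6 and 22.8 TPM to 6.25 and 7.33 TPM, and Gbp2, Gbp3 and Gbp7 fell by 1.35, 1.40 and 0.77.

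A set of 14 genes with the ISRE core in the promoter had a median change of -1.43 on plates, and 19 matched and tested genes without it had -0.98, given as a description. Reads of near-identical copies may have been divided between genes in the authors' quantification. By 31-base words, 61.8% of Ifit3 was shared with Ifit3b, 68.7% of Oas1a with Oas1g and 34.6% of Ifi204 with other genes, while Ifit2, Oas2, Cmpk2, Bst2 and Lgals3bp shared none. For genes near 1 TPM the added 1 makes a fold change smaller than the ratio of TPM.

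In high-collagen gels many genes of the set fell as well. limma called 20 of 46 lower and 0 higher, against 22.8% and 11.5% of 11852 genes tested in the 8 gel libraries. In a fit of all 12 libraries, as used for the plates, 25 of 45 were called lower and 1 higher, against 2986 and 1495 of 11865 genes. The median of the 46 was -0.53, beside -0.10 over all genes, and 35 of 46 had both IL-4 libraries below both untreated ones, as in 41.5% of all genes. For 2 of 46, Zbp1 and Lgals3bp, both IL-4 libraries were above both untreated ones, as in 19.8% of all genes, and neither was called (0.28 ± 0.29 and 0.26 ± 0.14).

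The IFIT genes were the group in which all members fell, 4 of 4. Ifit3 went from 23.4 and 37.3 TPM to 4.76 and 2.58 TPM (-2.75 ± 0.59, adjusted p by limma = 0.018). Ifit1 went from 5.19 and 14.0 TPM to 3.15 and 1.24 TPM (-1.66 ± 0.67, adjusted p by limma = 0.14), and its call was lost without untreated replicate 2 or either IL-4 library. Rtp4, a chaperone that also binds RNA, went from 43.4 and 41.9 TPM to 10.9 and 6.08 TPM (-2.25 ± 0.56, adjusted p by limma = 0.032). The IL-4 libraries of all 3 lay below the untreated ones.

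Of the nucleotide and RNA restriction enzymes 4 of 5 fell, with Rsad2 going from 22.1 and 38.3 TPM to 8.68 and 8.95 TPM. In the OAS family Oasl2 and Oas2 fell, while Oas3 (-1.02 ± 0.54) and Oas1a (-0.47 ± 0.29) did not pass. In the ISG15 system Isg15, Trim30a and Parp14 fell, and Usp18 stood at 10.5 and 17.5 TPM untreated and 13.5 and 13.1 TPM with IL-4. Only Ddx58 of the sensors, Irf9 of the factors and Gbp7 of the GTPases were called. Ifitm3 fell from 874 and 845 TPM to 432 and 355 TPM (-1.13 ± 0.18), and Ly6e stood at 959 and 901 TPM untreated and 863 and 749 TPM with IL-4.

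The count rested on each library of the comparison, falling when any 1 of them was left out. Such a fit leaves 1 library in a group, so only medians are given here. Without untreated replicate 1 or 2 the set's median was -0.62 or -0.46, beside -0.10 over all genes both times. Without IL-4 replicate 1 or 2 it was -0.60 or -0.54, beside -0.07 and -0.12. Without untreated replicate 2, and also without IL-4 replicate 2, the set's share of lower calls was no higher than that of all genes. The count rose without the 2 higher low-collagen libraries, which enter this fit only through the shared estimate of the spread.

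With all libraries, IL-4 gave calls in both directions in low-collagen gels, and the groups overlapped for most of the set. limma called 22 of 46 lower and 3 higher, against 40.4% and 13.2% of all genes, so with all libraries the falls were not much more common in the set than over all genes. That reading rested on IL-4 replicate 1 and untreated replicate 1. Without either, a much larger share of the set than of all genes was called lower, and without either of their partners a smaller share. With all libraries the median was -0.47, beside -0.19 over all genes. Only 14 of 46 had both IL-4 libraries below both untreated ones, as in 51.0% of all genes. After rescaling the libraries to equal median ratios, which moved the all-gene median to 0.00, 12 were called lower and 5 higher, against 20.4% and 24.0% of all genes.

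The largest falls without overlap were those of Ifit3, Ifit3b and Rsad2. Ifit3 went from 24.3 and 71.5 TPM to 14.97 and 4.85 TPM (-2.15 ± 0.59, adjusted p by limma = 0.030). Ifit3b went from 4.36 and 11.4 TPM to 1.51 and 0.520 TPM (-2.06 ± 0.50, adjusted p by limma = 0.018). Rsad2 went from 27.9 and 53.1 TPM to 18.3 and 8.94 TPM (-1.51 ± 0.40, adjusted p by limma = 0.024). For all 3 the groups did not overlap, although the 2 replicates of each group lay far apart.

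Gbp7 (-1.22 ± 0.23) and Ifitm3 (-0.92 ± 0.18), with values of 818 and 862 TPM untreated and 548 and 359 TPM with IL-4, fell as well. The 3 genes that rose were Usp18, Zbp1, a sensor of left-handed nucleic acid that triggers cell death, and Lgals3bp. Usp18 was at 9.05 and 17.7 TPM untreated and at 39.5 and 23.2 TPM with IL-4 (1.19 ± 0.36, adjusted p by limma = 0.039), the 1 gene of the 46 whose IL-4 libraries both exceeded both untreated ones, as in 17.4% of all genes. Zbp1 was at 14.6 and 29.6 TPM untreated and 41.1 and 29.5 TPM with IL-4 (0.71 ± 0.29), so that its groups overlapped slightly. Lgals3bp, at 271 and 321 TPM untreated and 418 and 314 TPM with IL-4, overlapped too. Gbp2, at 27.8 and 40.4 TPM untreated and 61.3 and 29.9 TPM with IL-4, did not pass (0.35 ± 0.30), and neither did Irf7 (0.03 ± 0.44).

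The count depended on which library was left out. Each such fit leaves 1 library in a group, so only medians are given here. Without untreated replicate 2 the set's median was -0.22, beside -0.15 over all genes, and without IL-4 replicate 2 both were -0.15. In both fits a smaller share of the set than of all genes was called lower. Without IL-4 replicate 2 as many genes of the set were called higher as lower. Without untreated replicate 1 or IL-4 replicate 1 the set's median was -0.76 or -0.90, beside -0.23 over all genes both times. Without both higher libraries it was -0.58, beside -0.19.

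**Figure D3:**
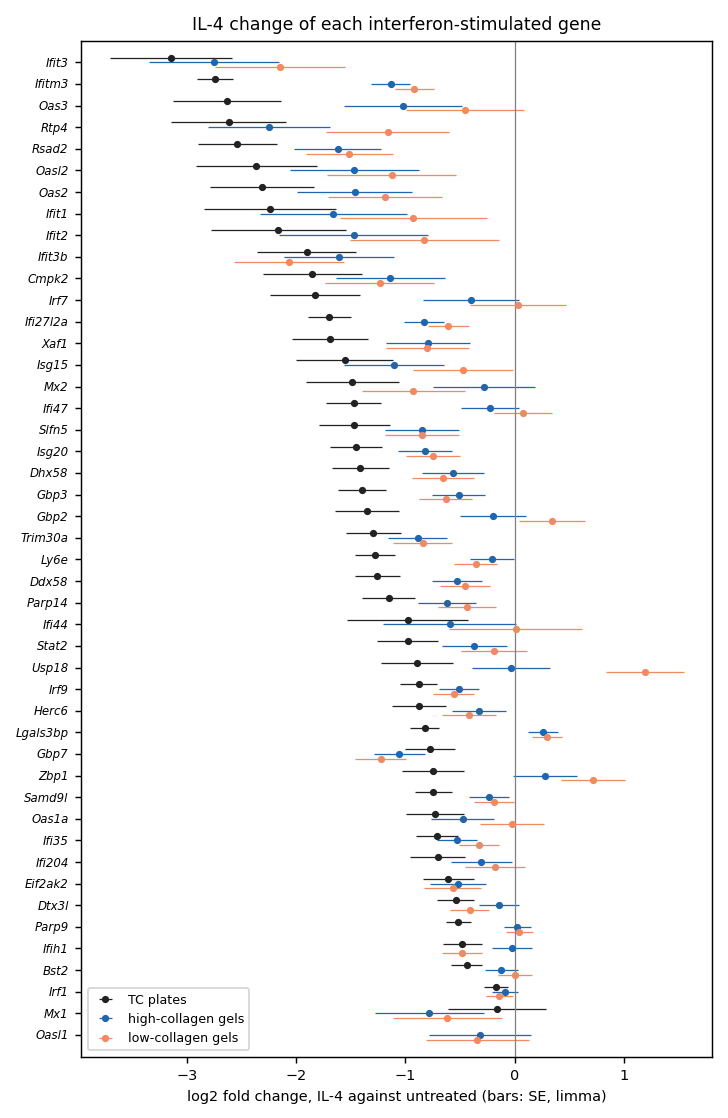
log2 fold change of each interferon-stimulated gene with IL-4 on TC plates (black), in high-collagen gels (blue) and in low-collagen gels (orange), with bars of 1 SE from limma; Oasl1 has no value on plates. The black points lie left of 0 for all 45 genes, and Usp18 in low-collagen gels is the point farthest to the right, at 1.19.

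Summed markers of fibroblasts and stromal cells were 0.485 to 2.27 TPM in untreated libraries and 5.55 to 13.5 TPM in libraries with IL-4, nearly all of it Pecam1, with the collagen genes Col1a1 and Col1a2 under 1 TPM. Their part in the IL-4 changes was not tested. In bulk RNA, fewer cells that express a gene and less RNA of it per cell cannot be told apart.

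The IL-4 change of the set was weaker in gels than on plates, and the difference itself passed the test for part of it. In the interaction of IL-4 with gel culture, taken as the mean IL-4 change of both gels minus that on plates, limma called 17 of 45 genes, all 17 toward a smaller fall or a rise in gels, against 10.8% of all genes called in that direction and 16.4% in the other. The median difference was 0.70, beside -0.08 over all genes, and 43 of 45 estimates were positive, with Mx1 (-0.54 ± 0.55) and Gbp7 (-0.37 ± 0.28) the exceptions.

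The largest differences were those of Oas3 (1.89 ± 0.60, adjusted p by limma = 0.078), Ifitm3 (1.72 ± 0.20, adjusted p by limma = 0.00069) and Irf7 (1.64 ± 0.50, adjusted p by limma = 0.068). Of 20 alternatives, the call of Oas3 was lost in 2, that of Irf7 in 3 and that of Ifitm3 in 0. Irf7 was the only called gene among the 4 signal factors and Oas3 the only one of the OAS family. The GTPases Gbp2 and Ifi47 differed by 1.42 and 1.40, and the secreted Lgals3bp, which fell on plates and not in either gel, by 1.10 ± 0.16. For 0 of the 4 IFIT genes did the difference pass, with estimates from 0.07 to 1.01 and SEs from 0.56 to 0.76, so a difference of that size could not be resolved. The count moved when a library was left out, and such a fit leaves 1 library in a group, so only medians are given here. The set's median was 0.70 without untreated plate replicate 2 and 0.93 without low-collagen IL-4 replicate 2. It was 0.51 without low-collagen untreated replicate 1 and 0.72 without both higher low-collagen libraries. The lowest was 0.48, without low-collagen IL-4 replicate 1, and the highest 0.95, without low-collagen untreated replicate 2. Over all genes the median was -0.10 to -0.06 in these fits. The fit without low-collagen untreated replicate 1 also held a call in the other direction.

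Between the 2 collagen densities the IL-4 change was not shown to differ. The interaction of IL-4 with collagen density called 0 of 46 genes by limma, against 0.363% of all genes, with 1 of 46, Usp18 (-1.23 ± 0.50), at an unadjusted p under 0.05. The count stayed at 0 under each alternative. SEs ran from 0.17 to 0.96, which sets the size of difference that could have been seen.

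In untreated cells the set held genes that were higher and genes that were lower in gels than on plates. The 4 untreated gel libraries were set against the 2 untreated plate libraries, and limma called 15 of 45 genes higher and 8 lower in gels, against 29.7% and 46.7% of all genes. The median was 0.09, beside -0.15 over all genes. After rescaling, 20 were called higher and 6 lower, against 37.8% and 38.1% of all genes. The groups did not overlap for 15 genes that were higher, as in 26.8% of all genes, and for 7 that were lower, as in 43.0%.

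Of the GTPases, 5 of 6 were called higher. Gbp7 was at 3.24 and 4.43 TPM on plates, at 13.2 and 20.4 TPM in low-collagen gels and at 9.77 and 9.77 TPM in high-collagen gels (1.51 ± 0.20, adjusted p by limma = 9.1e-05). Gbp2, a guanylate-binding protein that coats pathogen vacuoles, was at 8.88 and 9.91 TPM on plates, at 27.8 and 40.4 TPM in low-collagen gels and at 21.8 and 22.2 TPM in high-collagen gels (1.44 ± 0.25, adjusted p by limma = 0.00064). Gbp3 was at 7.04 and 7.03 TPM on plates, and at 14.7 to 24.9 TPM in gels (1.24 ± 0.19, adjusted p by limma = 0.00029). For all 3, each gel library was above each plate library.

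Irf1 was higher too, at 61.8 to 74.2 TPM in gels (1.12 ± 0.10), and so was Ly6e, at 758 to 959 TPM (0.84 ± 0.16). Ifit3, Rsad2, Isg20, Slfn5, Ifi204, Zbp1, Dtx3l and Parp9 were also called higher, the last 2 being partners in ADP-ribosylation whose genes lie head to head and share 31-base words.

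Of the OAS genes 2 of 4 were called lower, a share like that of all genes, and 4 of 4 estimates were below 0. Oas1a was at 66.1 and 77.2 TPM on plates, at 33.6 and 48.3 TPM in low-collagen gels and at 31.3 and 34.4 TPM in high-collagen gels (-0.95 ± 0.23, adjusted p by limma = 0.0043). Oas3 was at 10.7 and 23.3 TPM in low-collagen gels and at 15.2 and 18.5 TPM in high-collagen gels (-0.84 ± 0.43, adjusted p by limma = 0.11), a call lost without untreated plate replicate 2 or low-collagen replicate 1. Usp18 was at 20.0 and 24.7 TPM on plates, and at 9.05 and 17.7 TPM and 10.5 and 17.5 TPM in low- and high-collagen gels (-0.72 ± 0.29, adjusted p by limma = 0.051), a call lost without untreated plate replicate 2. The gel libraries of these 3 genes lay below the plate libraries. Eif2ak2, the kinase PKR that stops translation on viral RNA, Ifi35, Herc6, Ifitm3 and Lgals3bp were called lower by 0.25 to 0.56.

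With IL-4 the gel libraries were higher for most of the set. limma called 37 of 45 genes higher and 3 lower, against 25.7% and 51.8% of all genes. The median was 0.83, beside -0.24 over all genes, and 35 of 45 had all 4 gel libraries above both plate libraries, as in 21.9% of all genes. All 4 signal factors, 4 of 4 IFIT genes and 5 of 6 sensors were among those called higher. Rescaling gave 40 higher and 0 lower, against 4507 higher and 4519 lower of 11867 genes. The lower calls of Eif2ak2, Oas1a and Ifi35 did not hold under it.

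Gbp2 was at 2.54 and 3.69 TPM on plates with IL-4, at 61.3 and 29.9 TPM in low-collagen gels and at 20.3 and 17.9 TPM in high-collagen gels (2.87 ± 0.25, adjusted p by limma = 5.8e-06). Gbp3 was at 1.99 and 2.11 TPM on plates, at 14.0 and 10.7 TPM in low-collagen gels and at 10.1 and 12.6 TPM in high-collagen gels (2.07 ± 0.19, adjusted p by limma = 8.3e-06). Rsad2 was at 1.76 and 2.13 TPM on plates and at 8.68 to 18.3 TPM in gels (1.99 ± 0.31, adjusted p by limma = 0.00031). The 4 gel values of each lay above both plate values by a wide margin.

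**Figure D4:**
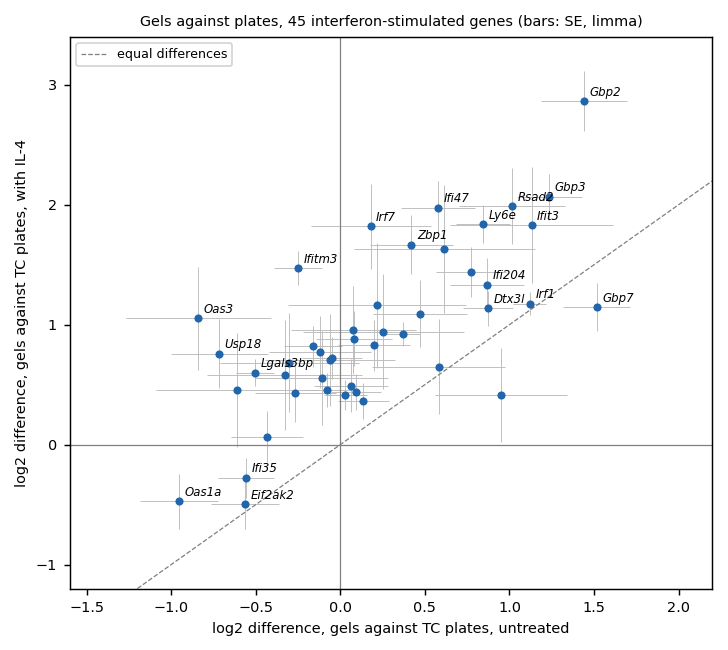
log2 difference between gel and plate libraries for 45 interferon-stimulated genes, untreated on the horizontal axis and with IL-4 on the vertical axis, with bars of 1 SE from limma and a dashed line of equal differences. Most points lie above the dashed line; Gbp2 is at 1.44 and 2.87, and Oas1a is at -0.95 and -0.47.

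Marker sums of other cells moved with gel culture. Those of dendritic cells were 2.16 to 4.05 TPM on plates and 5.58 to 11.1 TPM in gels, mostly Cox6a2. Those of T, NK and B cells were 1.57 to 3.05 TPM and 4.07 to 12.3 TPM, mostly Cd4, and those of granulocytes 0.943 to 2.803 TPM and 2.94 to 10.9 TPM, mostly Prtn3 and Ltf. Their part in the gel differences was not tested.

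Between collagen densities few genes of the set passed. With IL-4, limma called 5 of 46 lower and 1 higher in high-collagen gels, against 6.99% and 14.1% of all genes. The median was -0.33, beside 0.06 over all genes. Only 11 of 46 had both high-collagen libraries below both low-collagen ones, as in 20.2% of all genes.

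With IL-4, Usp18 was at 13.5 and 13.1 TPM in the high-collagen libraries, against 39.5 and 23.2 TPM in the low-collagen ones (-1.13 ± 0.36, adjusted p by limma = 0.11). Gbp2 was at 20.3 and 17.9 TPM against 61.3 and 29.9 TPM (-1.13 ± 0.30, adjusted p by limma = 0.079), and Zbp1 at 21.3 and 18.3 TPM against 41.1 and 29.5 TPM (-0.79 ± 0.29, adjusted p by limma = 0.17). These 3 genes were lower in both high-collagen libraries than in either low-collagen one. Oas1a (-0.74) and Ifi27l2a (-0.48) were also called lower. Ifih1, the RNA sensor MDA5, was called higher, at 18.01 and 17.1 TPM against 15.2 and 9.86 TPM (0.49 ± 0.18, adjusted p by limma = 0.17). Of 17 alternatives, the calls of Zbp1 and Ifih1 were each lost in 10, that of Usp18 in 6 and that of Gbp2 in 2.

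These calls rested on low-collagen IL-4 replicate 1. A fit without it leaves 1 library in a group, so only medians are given here. Without it the median of the set was 0.02, beside 0.11 over all genes, and without both higher low-collagen libraries 0.03, beside 0.11. Without low-collagen IL-4 replicate 2 the set's median was -0.77, beside 0.02. Without high-collagen IL-4 replicate 1 or 2 it was -0.45 or -0.29, beside 0.08 and 0.04. The count of calls fell when any 1 high-collagen library was left out. In untreated cells limma called 0 of 46, against 8.02% of all genes, with 1 at an unadjusted p under 0.05 and a median of -0.23. That median was -0.52 without low-collagen untreated replicate 1 and 0.07 without untreated replicate 2, beside -0.07 and 0.01 over all genes.

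**Figure D5:**
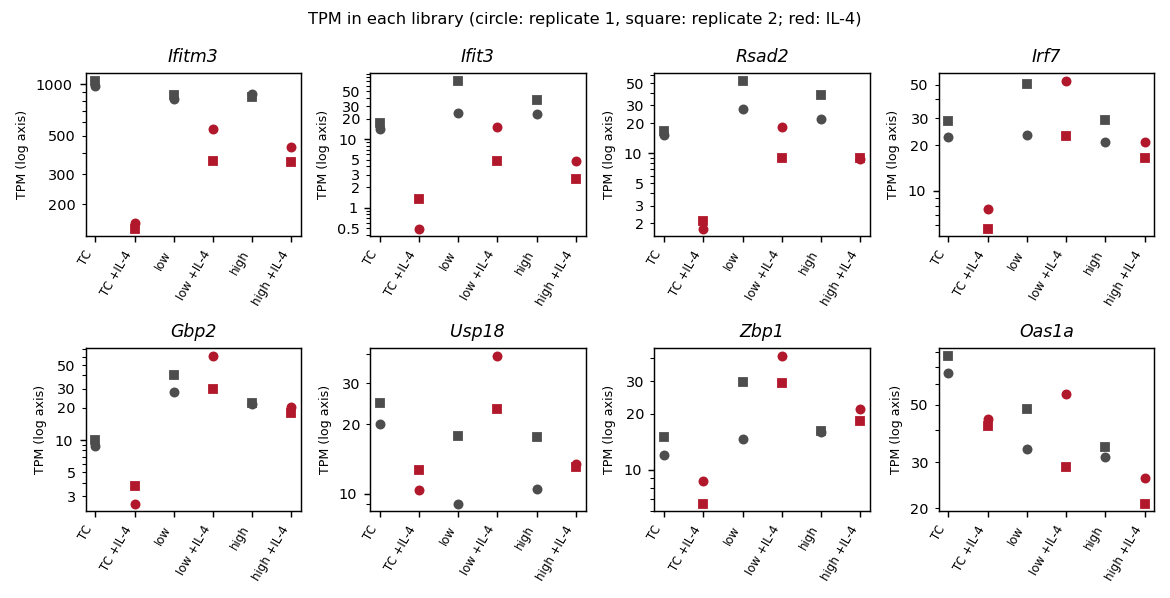
TPM on log axes of 8 genes in each of the 12 libraries, untreated in grey and with IL-4 in red, with circles for replicate 1 and squares for replicate 2. Ifitm3 is at 156 and 144 TPM on plates with IL-4 and at 355 TPM or more in every gel library, and the 2 values of Irf7 in low-collagen gels with IL-4 are 53.2 and 23.1 TPM.

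The other genes of the pathway moved less evenly. Of 13 receptor and signalling genes, 4 fell and 3 rose with IL-4 on plates, 4 fell and 4 rose in high-collagen gels, and 6 fell and 4 rose in low-collagen gels. Over all genes 24.0%, 22.8% and 40.4% were called lower in these 3 settings, and 14.7%, 11.5% and 13.2% higher. The receptor chains Ifnar1 and Ifnar2 were present in every library, at 51.5 to 76.0 TPM and 117 to 221 TPM. Socs1, a feedback inhibitor of JAK kinases, was at 0.7 to 1.2 TPM untreated and rose with IL-4 to 55.8 and 50.6 TPM on plates, 123 and 100.4 TPM in high-collagen gels and 183 and 175 TPM in low-collagen gels.

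Of 16 genes that sense pathogens upstream of interferon, 11 fell with IL-4 in each of the 3 settings. On plates, in high- and in low-collagen gels 1, 1 and 2 rose. The share of all genes called lower was larger in low-collagen gels, at 40.4%, than on plates, at 24.0%, or in high-collagen gels, at 22.8%. Of 43 interferon-stimulated genes outside the set, 32 fell and 1 rose on plates, 18 fell and 2 rose in high-collagen gels, and 18 fell and 3 rose in low-collagen gels, beside the background shares given above. Of 16 targets typical of interferon gamma, 10 fell and 2 rose on plates, and 15 were higher in gels than on plates with IL-4, a direction called for 25.7% of all genes. In gels, where 18 were tested, 7 fell and 5 rose with IL-4 at high and 5 fell and 6 rose at low collagen density.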

How the data were processed

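RNA from 12 libraries was sequenced by the study (poly(A) RNA, stranded, paired ends). The authors pseudoaligned reads with kallisto 0.46.1 to Ensembl mouse cDNA and deposited gene TPM; how transcripts were summed to genes is not given in the sources used here, and repeated lines of a gene were collapsed here (129). Reads of near-identical genes may be divided uncertainly, and TPM holds no depth. No column of other samples was found. Groups came from the sample titles.

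log2(TPM + 1) was fitted with limma 3.58.1 (R 4.3.3), 1 mean per condition, with a mean-variance trend, over genes at a mean of at least 1 TPM. Gel comparisons used the 8 gel libraries, the others all 12. P-values were adjusted by Benjamini-Hochberg over all genes tested, and a call is an adjusted p under 0.2. The fit was tested on simulated data. With 2 libraries a group no exact permutation test of a gene can pass, so none was run.

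Values in every library were given for the most abundant member of each role and for the 3 largest called rises and falls without overlap; others were named where they show a role. Genes such as Ifit2, Mx2, Irf7 and Rtp4 in further paragraphs were chosen after their values were seen. The members and lists were chosen with earlier results of these data known. Alternatives were the pseudocount (0.1), no filter or a mean of 5 TPM, median-ratio rescaling, a threshold of 0.05, no trend, a replicate block, each library left out, and all 12 libraries in the gel fits. Promoters came from RefSeq (GRCm38.p6). Values of some other genes are not reported here. Python 3.11.15 and matplotlib 3.10.9 were used for tables and plots.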

Additional observations from a re-analysis of the deposited data

Results flagged for a closer look

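The IL-4 change of 17 interferon-stimulated genes differed between gels and plates by the limma interaction (adjusted p under 0.2 over all genes), each with a value above 0, that is, a smaller fall or a rise in gels. The differences in log2 fold change were 1.89 for Oas3, 1.72 for Ifitm3 and 1.64 for Irf7. They were 1.47 for Usp18, 1.42 for Gbp2, 1.40 for Ifi47, 1.25 for Zbp1, 1.10 for Lgals3bp, 0.99 for Ly6e, 0.98 for Ifi27l2a. The smaller ones were 0.97 for Rsad2, 0.83 for Gbp3, 0.80 for Dhx58, 0.77 for Ddx58, 0.67 for Isg20, 0.55 for Parp9 and 0.53 for Samd9l. Adjusted p-values by limma ran from 0.00069 for Ifitm3 to 0.2 for Rsad2, just under the threshold. With the threshold at 0.05, 9 of the 17 remained called, where 601 of 11865 genes were called in that direction. In low-collagen gels Usp18, Zbp1 and Lgals3bp were called higher with IL-4 while they fell on plates, and that pair of directions rests on 2 libraries a group. For Zbp1 and Lgals3bp the untreated and IL-4 libraries overlapped in low-collagen gels.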

How the results depend on the processing

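Counts below are of the set's genes called by limma. The IL-4 falls on plates were 34 to 43 with 1 library left out, and gels against plates with IL-4 gave 32 to 42, of which 30 to 41 were higher. Leaving out 1 library gave 7 to 26 for IL-4 in high-collagen gels, 10 to 36 in low-collagen gels, 10 to 32 for the interaction of IL-4 with gels, 17 to 24 for gels against plates untreated, 0 to 13 for high against low collagen with IL-4 and 0 to 3 without it. Without a filter they were 9, 12 and 1 for IL-4 in high-collagen gels, in low-collagen gels and for collagen density with IL-4. Over all 20542 genes they were then 3588, 6004 and 1763. At an adjusted p under 0.05 they were 6, 8 and 0 of 46, beside 1890, 3656 and 561 of 11852 genes. The gel interaction then gave 9 of 45, beside 1303 of 11865, and gels against plates untreated gave 15, beside 7628. Among these, only the gel interaction held a larger share of the set than of all genes. Without the mean-variance trend, collagen density with IL-4 gave 2, beside 2247 of 11852. Collagen density without IL-4 gave 1 with a mean of 5 TPM, 1 after rescaling and 1 with all 12 libraries. Over all genes it gave 955 of 9458, 870 of 11847 and 1361 of 11865. The 2 higher low-collagen libraries were chosen after the data were seen. Without both, the set's median was -0.53 for IL-4 in high-collagen gels and 0.72 for the gel interaction. The distance from the lowest to the highest library level was 2.05, and 1.61 to 2.05 with 1 library left out, the lowest without low-collagen untreated replicate 2. Why these counts and medians moved was not tested.

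Equal replicate numbers mark no shared animal or batch in the labels. With the replicate number as a block, collagen density with IL-4 gave 3 called in place of 6, IL-4 in low-collagen gels 22, in high-collagen gels 17 and on plates 42. Over all genes these were 1923, 6102 and 3669 of 11852, and 4472 of 11865 on plates. Because replicate differences over all genes correlated at -0.12 between untreated and IL-4 libraries, both in low-collagen gels and on plates, the numbers were also crossed. This gave 28 and 42 called, beside 6687 of 11852 and 4654 of 11865 genes.

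Of 26 values named for single genes, 17 kept their call in every alternative run, 9 lost it in at least 1, and 0 reversed. Depth is unknown, and no limit of detection can be given.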
